A study of Mus musculus with 3 samples.

Results

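Clustered binding sites of a tethered Nrf2-MafG protein are the sites called after diethyl maleate (DEM) that have at least 1 other such site close by on the same chromosome. A member was a DEM summit with another DEM summit no more than 100 kb away, and neighbours with gaps of 100 kb or less were chained into loci. A summit is the position where the signal of a peak is highest, and each summit is listed with the score of its peak. By this rule 325 of the 1246 DEM summits (26.1%) were clustered, in 141 loci, and 921 were isolated. The members were chosen by their measured positions in the DEM list, so their number, spacing and DEM scores are a description and carry no test. The vehicle list played no part in the choice.

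The sites were mapped by chromatin immunoprecipitation and sequencing (ChIP-seq) with an antibody against MafG. Both groups were mouse embryonic fibroblasts of genotype MafF-/-::MafG-/-::MafK-/- that carried the tethered construct, named T-N2G in the titles. One group was given 100 µM DEM and the other vehicle, each for 4 hours per the labels. Each group was 1 library, input DNA was sequenced as the third sample, and there were no replicates.

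Nrf2 is the activator of the oxidative stress response and binds antioxidant response elements in DNA together with a small Maf partner. Tethering joins both partners in 1 protein, and deleting the 3 small Maf genes removes the other partners. DEM is an electrophilic compound that lowers cellular glutathione and stabilises Nrf2. Response elements can occur several to a locus, as in the distal enhancers of heme oxygenase 1, and detoxication genes such as the glutathione S-transferases lie in tandem families. Which genes lie at the sites, and which sequences they hold, was not analysed here, because the lists are in mm9 coordinates and the gene tables at hand follow GRCm38. Each site is given by its mm9 chromosome and position, counted from 1.

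Most loci were simple pairs. Of the 141 loci, 115 held 2 summits, 17 held 3, 5 held 4, 1 held 5, 2 held 6 and 1 held 7. The 26 loci of 3 or more summits contained 95 of the 325 members. From the first to the last summit, loci spanned a median of 43371 bp, with quartiles of 16775 and 75263 bp. Pairs spanned a median of 35385 bp and the larger loci 80608.5 bp, and 10 loci were longer than 100 kb. The shortest locus was a pair 408 bp apart on chromosome 4, and the longest, on chromosome 3, extended over 223994 bp.

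Within the loci there were 184 gaps between neighbours, with a median of 32989 bp and quartiles of 11756.8 and 63644.2 bp. Of these gaps, 9 were at most 1 kb, 33 lay between 1 and 10 kb and 34 between 10 and 25 kb. A further 50 lay between 25 and 50 kb and 58 between 50 and 100 kb. The bin of gaps up to 20 kb held 68 neighbouring pairs, the bin from 20 to 40 kb held 38, and the bins on either side of the limit held 21 (80 to 100 kb) and 25 (100 to 120 kb). No break in the distribution marked the limit of 100 kb, and the bin of shortest gaps was the fullest.

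**Figure D1:**
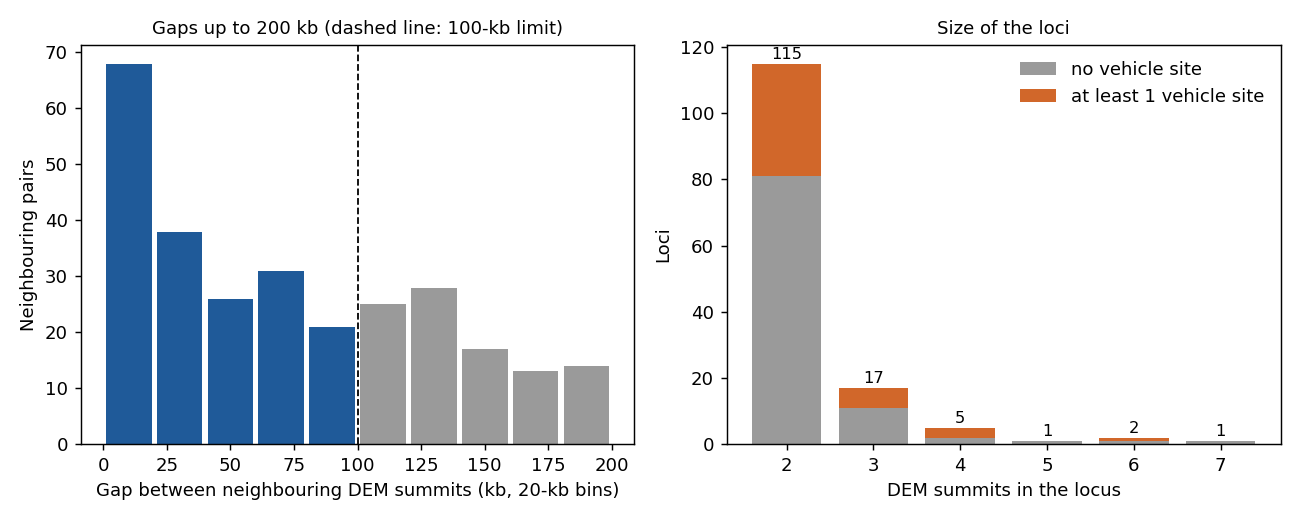
Left, number of neighbouring pairs of DEM summits against the gap between them in 20-kb bins up to 200 kb, with blue bars inside the 100-kb limit (dashed line) and grey bars outside it. Right, number of loci by how many DEM summits they hold, with the part that has at least 1 vehicle summit within 500 bp in orange; gaps up to 20 kb are the fullest bin, with 68 pairs, and 115 of the 141 loci are pairs.

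The widest gaps just inside it were 99943 bp on chromosome 11 (86471523 and 86571466), 99633 bp on chromosome 7 (57019592 and 57119225) and 99235 bp on chromosome 9 (72391579 and 72490814). The narrowest gaps just outside it were 100291 bp on chromosome 10 (66388563 and 66488854), 100908 bp on chromosome 17 (34157070 and 34257978) and 101439 bp on chromosome 12 (71655245 and 71756684). Both sets held weak and stronger sites: the scores inside the limit ran from 3.60 to 85.5 and those outside it from 3.39 to 58.1.

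The score is a −log10 p or q value of the peak, as the authors' peak caller gave it, and it ranks sites within 1 list. Clustered and isolated summits had the same median score, 15.2. The quartiles were 7.98 and 37.1 for clustered summits and 8.92 and 30.8 for isolated ones, so the clustered quartiles lay slightly further apart. Many peaks had tied scores: 206 of the 325 clustered summits and 695 of the 921 isolated ones shared their score with another DEM summit. When the whole DEM list was split at its quartiles (8.87, 15.2 and 32.7), 90 clustered summits (27.7%) fell in the lowest quartile and 91 (28.0%) in the highest. For isolated summits these shares were 24.6% and 24.0%. Sites of 1 library are not replicates, so these differences were not tested. Leaving out a locus of 6 very weak summits on chromosome 17, described below, brought the lowest-quartile share of clustered summits to 26.3% and their median score to 15.9. Of the 50 highest-scoring DEM summits, 17 were clustered, as were 30 of the 100 and 63 of the 200 highest. Over all DEM summits the clustered share was 26.1%, and the difference was not tested.

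Strong and weak sites were mixed within loci. The highest-scoring summit of a locus, called its top summit here, had a median score of 33.2, and the second-highest a median of 8.92. Sorting by score sets this order, so some difference between them is built in. The top summit exceeded the second by a median of 17.4 score units (quartiles 6.30 and 49.6), by less than 10 units in 49 loci and by more than 100 in 15. Of the 115 pairs, 23 joined a summit of the highest quartile with one of the lowest. Another 10 pairs had both summits in the highest quartile and 8 had both in the lowest. Of the 230 summits in pairs, 65 were in the highest quartile and 65 in the lowest. The counts of pairs were not compared with those of random pairing, so they are a description only. In 19 of the 141 loci at least 2 summits were in the highest quartile, and in 31 loci no summit scored above the list's median. The scores of neighbours were hardly related, with a Spearman's rho of 0.05 across 184 neighbouring pairs and -0.02 across 179 without the chromosome 17 locus. These pairs share 1 library, and summits inside larger loci enter 2 pairs.

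**Figure D2:**
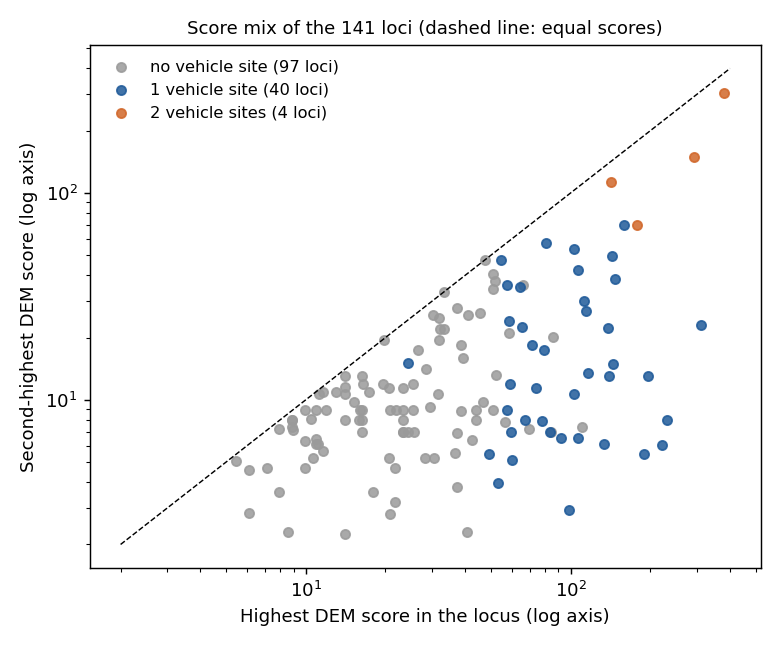
Second-highest DEM score against the highest DEM score of each of the 141 loci, both on log axes, coloured by how many members have a vehicle summit within 500 bp; the dashed line marks equal scores. Points lie well below the line in most loci, and the 4 loci with 2 vehicle sites have second scores between 69.8 and 303.9.

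The vehicle list showed which of these sites were already called without DEM. A vehicle summit lay within 500 bp of 48 of the 325 clustered summits, a share of 14.8% (exact 95% interval 11.1 to 19.1%). Over all DEM summits the share was 14.6%, and over isolated summits it was 14.5% (134 of 921, 95% interval 12.3 to 16.99%). The clustered share thus stood at the background of the list. Intervals cover counting error over summits only. Each of the 48 had its own vehicle summit, at a distance of 1 to 98 bp with a median of 16 bp. These 48 made up 26.4% of the 182 vehicle summits, beside the 26.1% of DEM summits that were clustered. Each of the 182 matched its own DEM summit, so this restates the shares of 14.8% and 14.6%.

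The share followed the score in both sets. In the highest score quartile, 47 of 91 clustered summits had a vehicle summit (51.6%, 95% interval 40.9 to 62.3%), and 123 of 221 isolated ones did (55.7%, 95% interval 48.8 to 62.3%). Over all DEM summits of that quartile the share was 54.5%. In the third quartile 1 of 69 clustered summits had one (1.45%, 95% interval 0.0367 to 7.81%), beside 3.32% of all DEM summits in it. In the second quartile 0 of 75 clustered summits had one (upper 95% limit 4.80%), beside 0.316% of all DEM summits in it. In the lowest quartile 0 of 90 had one (upper 95% limit 4.02%), beside 0.315%. Among the 100 highest DEM scores, 28 of 30 clustered summits had a vehicle summit and 61 of 70 isolated ones did. The intervals of clustered and isolated summits overlapped in each quartile.

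**Figure D3:**
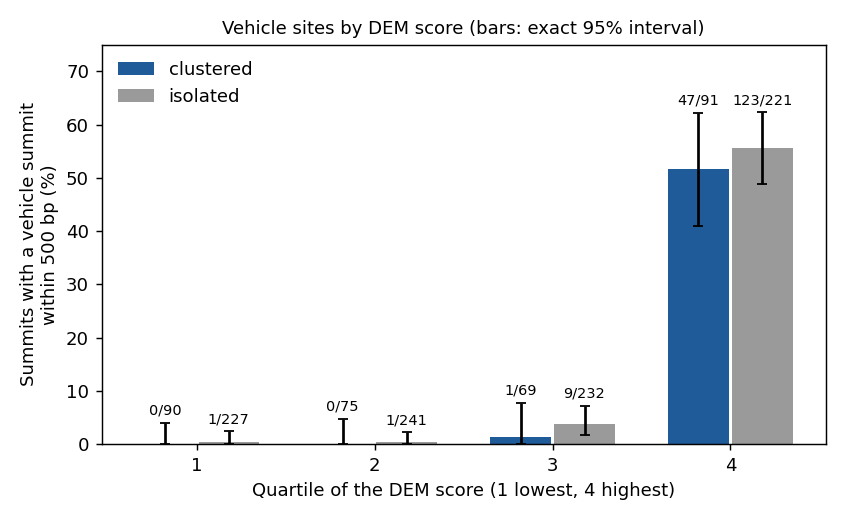
Percent of DEM summits with a vehicle summit within 500 bp, by quartile of the DEM score, for clustered (blue) and isolated (grey) summits; error bars are exact 95% intervals and the labels give the counts. In the highest quartile the shares are 51.6% and 55.7%, and below it 1 of 69 clustered summits in the third quartile is the only clustered one with a vehicle summit.

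Vehicle sites were also counted per locus. A locus held at least 1 vehicle site in 44 of 141 cases (31.2%, 95% interval 23.7 to 39.5%). Any of 2 or more members can supply it, so this share is not comparable with the 14.6% of single DEM summits. In 40 loci exactly 1 member had a vehicle summit, in 4 loci 2 members had one, and in 97 loci none had. In each of the 44 loci the top summit was among the members with a vehicle summit, and the other 4 vehicle sites were all second in their locus. This order goes with the rise of the vehicle share with score, which was also seen among isolated summits, and was not tested apart from it. The 34 vehicle-bearing pairs and the 10 larger vehicle-bearing loci made up these 44. All members had a vehicle summit in 3 loci, each of them a pair.

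The 44 vehicle-bearing loci had 56 further summits called only with DEM. These companions had a median score of 13.0 (quartiles 7.21 and 23.2), close to the 13.0 of isolated summits without a vehicle summit (quartiles 7.98 and 22.0). They stood a median of 49313.5 bp from the nearest vehicle summit, with a range of 696 to 123150 bp. Of the 56, 33 scored in the lower 2 quartiles of the DEM list, 14 in the third and 9 in the highest. The strongest lay on chromosome 16 at 14351036 (score 70.1), 1859 bp from a vehicle summit. A site not called with vehicle is one below the caller's threshold at an unknown depth and is not shown to be unbound.

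Under the same rule the vehicle list itself held 6 clustered summits of 182 (3.30%, 95% interval 1.22 to 7.04%), in 3 pairs. The share depends on how many summits a list holds, so it is not comparable with the 26.1% of the longer DEM list. All 3 pairs matched DEM pairs. Each of the 182 vehicle summits lay within 500 bp of a DEM summit, so this match was fixed in advance. On chromosome 8 the DEM summits at 77607874 and 77613645, 5771 bp apart, scored 303.9 and 378.4, the highest pair of scores in any locus, and the vehicle summits scored 91.9 and 131.2. On chromosome 1 the DEM summits at 45917385 and 45930305, 12920 bp apart, scored 141.7 and 113.2. Their vehicle counterparts scored 26.7 and 6.60. On chromosome 16 the DEM summits at 95162340 and 95178256, 15916 bp apart, scored 177.8 and 69.8, and their vehicle counterparts 13.3 and 9.55. In each of these pairs the summit that scored higher with DEM also scored higher with vehicle.

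The fourth locus with 2 vehicle sites was the longest of all. It held 6 DEM summits on chromosome 3 between 107626355 and 107850349. The first summit scored 292.4 and the fifth, at 107816324, scored 148.7, and both had vehicle summits at 16 and 4 bp (vehicle scores 41.5 and 28.1). They stood 189969 bp apart and were joined only by the 3 weaker summits between them, at 107653763 (16.3), 107742596 (29.6) and 107767804 (13.9). The last summit, at 107850349, scored 29.4. The 4 summits called only with DEM stood 27392 to 73732 bp from the nearest vehicle summit.

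The locus with the most summits had no vehicle site. It held 7 DEM summits over 156421 bp on chromosome 9, from 78039636 to 78196057, with gaps of 11633 to 58992 bp. In order along the chromosome they scored 22.0, 7.24, 19.7, 14.0, 32.1, 9.76 and 5.73. None was in the highest score quartile. The closest vehicle summit (77598571, score 23.8) lay 441065 bp before the first. This locus thus consisted of weak and middling sites without 1 dominant peak.

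On chromosome 11 lay 2 further large loci with different make-up. The locus from 75197198 to 75276574 had 4 summits. The first scored 310.7, the second-highest DEM score of all, and had a vehicle summit 69 bp away (score 58.8). The other 3 stood 76845 bp further on, with gaps of 736 and 1795 bp between them, and scored 22.9, 18.8 and 8.08. The locus from 86384045 to 86571466 had 5 summits and no vehicle site. Its 2 strongest, at 86423958 and 86427713, stood 3755 bp apart and scored 37.5 and 51.8, and its other summits scored 13.9, 6.80 and 4.35.

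The other loci of 4 summits were of both kinds. On chromosome 19, the summit at 5848175 scored 106.5 and had a vehicle summit 39 bp away. Its neighbour at 5850350, 2175 bp on, scored 42.5 and had none within 500 bp, and the outer summits at 5792212 and 5945228 scored 10.3 and 15.9. On chromosome 3, the summit at 122959205 scored 58.5 with a vehicle summit at 36 bp, while its neighbour 660 bp on scored 23.9 and the more distant ones 20.6 and 4.35. The other chromosome 3 locus, from 60374510 to 60511267, had no vehicle site, and its scores were 15.2, 20.7, 40.6 and 50.7 in order along the chromosome. The locus on chromosome 5 from 136427066 to 136451962 had scores of 11.9, 9.01, 10.2 and 25.5 and no vehicle site.

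The locus on chromosome 17 from 39980487 to 39985504 stood apart by its spacing and its low scores. Its 6 summits scored 3.34, 5.47, 2.03, 3.69, 5.04 and 2.68 in order, all in the lowest quartile, with ranks from 1151 to 1245 of 1246. The first 5 stood 524 to 664 bp apart, and the sixth followed after 2744 bp. Of the 9 gaps of at most 1 kb in all loci, 4 were in this locus. The nearest vehicle summit stood 5722518 bp away. Whether these 6 summits are separate binding sites was not tested.

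**Figure D4:**
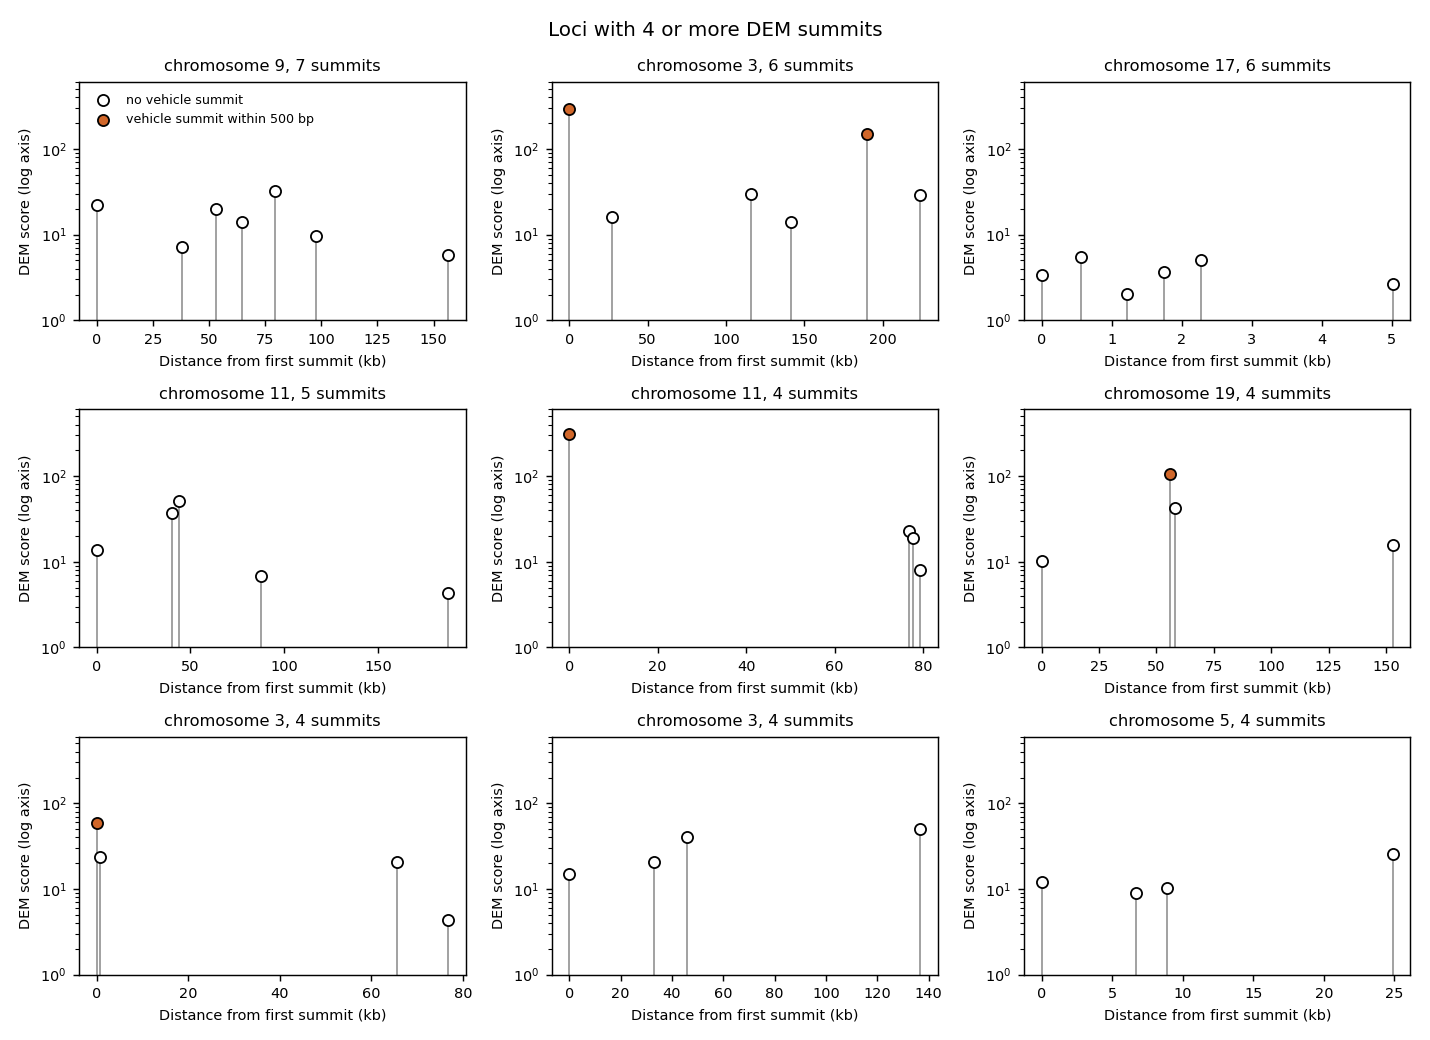
DEM score on a log axis of each summit in the 9 loci with 4 or more DEM summits, against its distance in kb from the first summit of the locus; filled points have a vehicle summit within 500 bp. The 5 filled points are the strongest or second-strongest of their loci, and the 6 summits of the chromosome 17 locus lie below a score of 6.

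The scores of neighbouring pairs were also set out by the gap between them. The 9 pairs at most 1 kb apart had a median higher score of 10.5 and a median lower score of 8.08, but 4 of them belonged to the chromosome 17 locus, and without it the other 5 had medians of 23.3 and 11.4. Pairs between 1 and 10 kb had a median higher score of 21.8, those between 10 and 25 kb 26.7, those between 25 and 50 kb 29.1 and those between 50 and 100 kb 42.5. The median lower score of these 4 bins lay between 8.85 and 9.97. A vehicle site was included in 49 of all 184 pairs (26.6%). Either summit of a pair can supply it, so this share is not comparable with the 14.6% of single DEM summits. By bin of increasing gap the numbers were 1 of 9, 7 of 33, 8 of 34, 14 of 50 and 19 of 58. These shares rose along with the median higher score of the bins and were not tested apart from it. Spearman's rho between the gap and the higher score was 0.20 across the 184 pairs and 0.14 across the 179 without the chromosome 17 locus. The closest pair was that on chromosome 4, at 54368970 and 54369378 (scores 10.5 and 8.08). Next was a pair 442 bp apart on chromosome 16, at 31598723 and 31599165 (scores 11.4 and 23.3), within a locus of 3, and the next 3 were in the chromosome 17 locus. Whether such pairs are 1 broad signal called as 2 peaks was not tested.

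The 5 loci with the highest second score were the pairs on chromosomes 8, 1 and 16 and the chromosome 3 locus given above, and a locus of 3 on chromosome 16. In the last, summits at 14351036 and 14352894, 1858 bp apart, scored 70.1 and 159.3, and the last summit, at 14366315, scored 8.92. A vehicle summit stood 1 bp from the middle one.

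Other loci had a dominant summit with a weak neighbour. Among the 5 with the highest top score, that on chromosome 13 paired a summit at 45846793 (score 231.1, vehicle summit 9 bp away) with one at 45923076 (7.96). That on chromosome 2 paired a summit at 167590849 (score 221.1, vehicle summit 6 bp away) with one at 167516143 (6.08). The other 3 were the loci on chromosomes 8, 11 and 3 described above.

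Loci with no vehicle site had lower scores, with a median top score of 22.0 (range 5.47 to 110.2), beside 103.1 (range 24.4 to 378.4) in loci with one. The second scores had medians of 8.92 and 15.1. These differences go with the rise of the vehicle share with score and were not tested apart from it. Isolated summits differed likewise, with a median score of 13.0 without a vehicle summit and 76.4 with one. Among the 97 loci with no vehicle site, the top summit was in the highest quartile in 29. The strongest such locus lay on chromosome 11, with summits at 48937845 (score 110.2) and 49011525 (7.36). The next had their top summits at 57119225 on chromosome 7 (85.5) and at 81722453 on chromosome 15 (84.6). They were followed by loci on chromosome 11, with a top summit at 50026465 (69.7), and on chromosome 1, with one at 90037219 (66.4). The weaker members of these loci scored between 7.02 and 35.8. On chromosome 1 both members, 31378 bp apart, were in the highest quartile. The nearest vehicle summit to these 5 loci was at least 4301912 bp away.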

How the data were processed

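ChIP-seq summit lists of the vehicle and the DEM library were used, and the input library was not analysed here. Per the submitters' processing notes, MACS2 2.1.1.20160309, Bowtie2 2.2.9 and bcl2fastq 2.16.0.10 were used, with the build mm9. The lists the authors deposited have the layout of MACS2 summit files, with the −log10 score of p or q in column 5. Not given in the sources used here: whether it is p or q, the calling threshold, the control and how duplicates were treated. The lists hold no read depth. Lists were called per library.

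Summits were chained at 100 kb and matched to vehicle summits at 500 bp, in Python 3.11.15 with pandas 2.3.3 and scipy 1.17.1. Shares carry exact (Clopper-Pearson) 95% intervals. The code was tested on simulated lists with planted loci and matches. With 1 library per condition no test was made. Named loci were those with 4 or more summits or 2 vehicle sites, the 5 highest by top score, by second score and by top score without a vehicle site, the 5 closest neighbouring pairs, and 3 pairs on each side of the limit. The members, rules and alternatives were chosen with earlier results of these data known. Motifs and genes were planned only for a reference in mm9.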

Additional observations from a re-analysis of the deposited data

How the results depend on the processing

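Of 75 alternative values, 59 stayed within 1.5 times the reported one (counts and scores) or within its 95% interval (shares), and 16 moved. A linking distance of 10 kb left 77 clustered summits in 35 loci, while 50 and 200 kb gave 227 and 478 summits in 101 and 197 loci. A DEM score of at least 10 left 144 clustered summits in 63 loci and one of at least 20 left 67 in 32, as fewer summits remain to be chained. Their median scores were then 25.9 and 42.5, and those of isolated summits 23.2 and 41.2. The shares with a vehicle summit became 22.2% and 31.3% for clustered and 21.3% and 37.3% for isolated summits. Keeping only vehicle scores of at least 10, with all DEM summits, lowered the reported shares of 14.8% and 14.5% to 8.31% and 7.06%. The top summit held a vehicle site in each vehicle-bearing locus under every setting except linking at 200 kb, where 65 of 66 did. Leaving out the chromosome 17 locus of 6, chosen after seeing the data, moved none of the numbers of summits and loci, vehicle shares and median scores of clustered and isolated summits by 1.5 times. It raised the median higher score of pairs at most 1 kb apart from 10.5 to 23.3, with 5 pairs left. The motif and gene alternatives were not run. No paired analysis was possible because neither condition was replicated, and leaving out a replicate was likewise not possible. Unknown depth limits each count of sites.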

Other observations

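The share of DEM summits that were clustered was highest on chromosome 3, at 27 of 65 (41.5%, exact 95% interval 29.4 to 54.4%), chromosome 17, at 29 of 71 (40.8%, 29.3 to 53.2%), and chromosome 11, at 33 of 85 (38.8%, 28.4 to 50.01%). It was lowest on chromosome 18, at 4 of 39 (10.3%, 2.87 to 24.2%), and chromosome 6, at 9 of 56 (16.1%, 7.62 to 28.3%). On chromosome 17, 6 of the 29 belonged to the 1 locus of very weak summits. Chromosomes were compared after their values were seen, and no test was made. The share also depends on how many summits a chromosome holds for its length, which was not adjusted for. Members of a locus are clustered together by the rule, while the intervals treat summits as separate. Of the 48 clustered summits with a vehicle summit, most were on chromosomes 3 and 16 for any single chromosome. On chromosome 3, 6 of 27 clustered summits had one, beside 11 of all 65 DEM summits there. On chromosome 16, 5 of 16 clustered summits had one, beside 11 of all 45.

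A single locus had tied top scores. The summits on chromosome 12 at 113755353 and 113837583 both scored 33.2, and neither had a vehicle summit. In the 26 loci of 3 or more summits, the top summit was the first or last along the chromosome in 17. Most of these loci held 3 summits, of which all but the middle one are at an edge. This count therefore does not show a preference for edges.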
